A study of Mus musculus with 18 samples.

Results

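Embryoid body formation was examined in Pax7+/+ mouse embryonic stem cells, by setting embryoid bodies collected at day 7 against the undifferentiated cells of day 0. The comparison took the arrays whose titles give Pax7+/+ and day 7 or day 0, 3 of each, so 6 of the 18 arrays in the study. The cells were an F1 of C57Bl6N and 129Sv. At day 7 they had been grown as embryoid bodies in KO-DMEM without LIF and with added RA (retinoic acid) and ITS, and at day 0 as stem cells in KO-DMEM with LIF, the cytokine that holds mouse embryonic stem cells undifferentiated. The other 12 arrays held Pax7+/+ outgrowths of day 21 and Pax7-/- cells, in which Pax7 is disrupted, at days 0, 7 and 21. Day, LIF withdrawal, the added RA and ITS, and growth as aggregates changed together between the groups and cannot be told apart. Whether the day 0 cells were grown on feeder cells, and how many lines or clones each genotype comprised, is not given in the sources used here.

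Embryoid bodies are free-floating aggregates in which stem cells repeat some early steps of the embryo. The outer cells turn into primitive endoderm, whose parietal branch lays down a thick basement membrane and whose visceral branch takes up and secretes nutrients, while inner cells leave naive pluripotency. Retinoic acid added to such cultures acts through nuclear receptors on genes such as Cyp26a1, Rarb and the first Hox genes, and can drive stem cells towards endoderm and neural fates.

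RNA was measured on Affymetrix arrays, and the deposited values are log2 intensities, which compare a gene between samples but not one gene with another. The 18 arrays fell into 2 sets by the standard deviation of their values over all probe sets, 1.37 to 1.45 log2 on narrow arrays and 1.79 to 1.85 log2 on wide arrays. Day 7 held 1 narrow and 2 wide arrays and day 0 held 2 narrow and 1 wide array, so the set was a term of the fit. Below, values of single arrays are in log2 with the narrow arrays first: replicate 1 (narrow), 2 and 3 (wide) for day 7, and replicates 1 and 2 (narrow) and 3 (wide) for day 0. Differences are day 7 minus day 0 in log2 with the standard error of the fit (SE, n = 3 arrays per day), and a gene passed at an adjusted p under 0.05 from limma with Benjamini-Hochberg adjustment over 22180 genes. The titles call the 3 arrays of each group biological replicates, but do not say whether these were separate cultures or clones. The number of arrays limits the precision, and p-values measure only the spread between arrays within groups. That spread was estimated from all 18 arrays of the study, with 11 residual degrees of freedom, and not from the 6 compared arrays alone.

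Of 22180 genes, 1261 (5.69%) passed. At day 7, 564 genes were higher (2.54%) and 697 were lower (3.14%), with 213 (0.96%) and 211 (0.951%) of them at 2-fold or more. The median absolute difference of the 1261 genes was 0.64 log2 on narrow and 0.85 log2 on wide arrays, and 271 of the 1261 changed by unequal amounts in the 2 sets (limma, adjusted p under 0.05, as did 4.55% of all genes). Without the array set in the fit, 9 genes were higher and 6 lower. With the 6 Pax7+/+ arrays alone, 338 were higher and 512 lower, and 687 of the 1261 genes passed in the same direction. With 1 array left out, the counts were 208 higher and 404 lower without day 0 replicate 3, 288 and 403 without day 7 replicate 2, and 278 and 362 without day 7 replicate 3. Of the genes chosen for description, 185 passed and 112 of these passed whichever array was left out. For the genes described below, calls lost without an array are given with the gene, and for the hairpins of Sfmbt2 as counts. The 12 largest rises and falls were taken from genes without overlap in either array set, so the lack of overlap there follows from the choice. Genes that did not pass can lack overlap too, as 1110036E04Rik did within both sets (0.094 ± 0.131 log2, adjusted p = 0.815). Among the 1261 genes that passed, 1255 had no overlap within either set, so its lack does not set any of them apart. Where lack of overlap is given below, it describes the readings and is not a test.

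**Figure D1:**
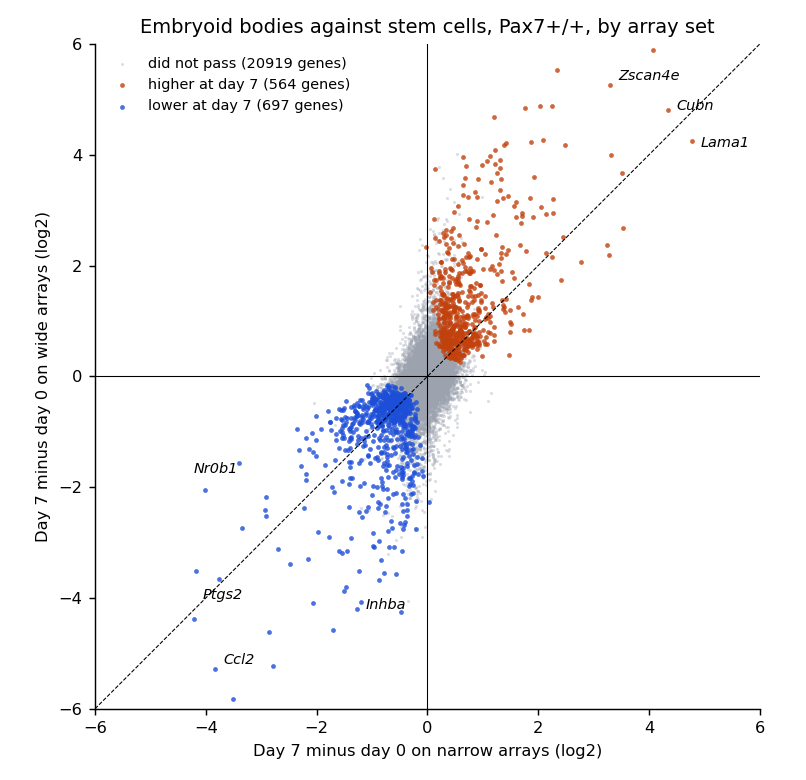
Each point is 1 of 22180 genes, with the difference of day 7 minus day 0 in Pax7+/+ on narrow arrays along the x axis and on wide arrays along the y axis, both in log2, and a line of equality. The 564 genes that were higher lie mainly in the upper right and the 697 that were lower in the lower left, and the wide arrays gave the larger difference for 796 of the 1261.

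Among the lists, the genes of parietal endoderm made the clearest gain. Whether the RNA came from parietal cells was not tested. Of 16 measured genes in the parietal endoderm list, 14 were higher at day 7 and none was lower (87.5%, beside 5.69% of all genes). The median difference was 1.61 log2, beside -0.001 log2 over all genes. All 10 matrix genes of the list rose, among them chains of laminin and of type IV collagen, which together build basement membrane. Lama1, the laminin alpha-1 chain, stood at 10.41, 11.08 and 11.04 at day 7, against 5.62, 5.62 and 6.82 at day 0. It had the largest rise of the genes named here, 4.50 ± 0.20 log2 or 22.6-fold (adjusted p = 3.93e-09), and every day 7 array lay above every day 0 array. Lamb1, the beta-1 chain that pairs with it, was at 9.92, 10.98 and 10.92 at day 7, against 6.58, 6.18 and 8.27 at day 0. It rose by 3.16 ± 0.22 log2 (adjusted p = 6.08e-07), again without overlap. Col4a1 and Col4a2, the collagen IV chains, rose by 2.19 ± 0.29 log2 and 2.09 ± 0.27 log2 (adjusted p = 0.000205 and 0.000176). The surface and secreted genes included Pth1r, the receptor for parathyroid hormone related peptide, which drives parietal differentiation, at 2.58 ± 0.48 log2 (adjusted p = 0.00409). Plat, a plasminogen activator, had 1.05 ± 0.36 log2 (adjusted p = 0.115), and Thbd, thrombomodulin, -1.24 ± 0.35 log2 (adjusted p = 0.051), so neither passed. With any 1 array left out 12 or 13 members were higher, and 12 passed on the narrow arrays alone. With quantile normalization, with median centring, and without day 7 replicate 1 or day 0 replicate 2, 1 member was lower.

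Outside that list, 2 genes of collagen modification are given singly, since no list of such enzymes was tested. Plod2, a lysyl hydroxylase, was at 8.66, 10.25 and 10.16 at day 7, against 5.42, 5.39 and 7.83 at day 0. Its difference was 2.79 ± 0.23 log2 (adjusted p = 2.64e-06). P4ha1, a subunit of prolyl 4-hydroxylase, rose by 2.39 ± 0.23 log2 (adjusted p = 9.86e-06). Both genes were higher on every day 7 array than on any day 0 array.

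Transcription factors of endoderm moved the same way. Of 15 measured, 4 were higher and none lower (26.7%, beside 5.69% of all genes). The median was 0.54 log2, and 0.24 log2 without day 0 replicate 3. On narrow arrays the median was 0.20 log2 and on wide arrays 1.17 log2. Gata6, which specifies primitive endoderm, was at 8.05, 10.12 and 10.15 at day 7, against 5.67, 5.45 and 5.96 at day 0. It rose by 3.17 ± 0.28 log2 (adjusted p = 4.53e-06), with all day 7 arrays above those of day 0. Sox7, a marker of the parietal branch, rose by 2.30 ± 0.32 log2, Foxq1 by 1.73 ± 0.32 log2 and Gata4, the partner of Gata6, by 1.64 ± 0.36 log2 (adjusted p = 0.00037, 0.00391 and 0.0113). Sox17 and Foxa2, which also mark definitive endoderm, had 0.95 ± 0.32 log2 and 1.01 ± 0.37 log2 and did not pass (adjusted p = 0.108 and 0.139). The call of Gata4 (adjusted p = 0.0565 to 0.074) was lost without day 7 replicate 3 or without day 0 replicate 3.

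Genes for the uptake apparatus of visceral endoderm rose in part, while those for its secreted products did not pass. Of 28 measured genes 17.9% passed, beside 5.69% of all genes. Among 9 genes listed under uptake and surface, 5 rose and none fell. Of 19 secreted products none passed in limma in either direction (medians 1.27 and 0.46 log2), with 6 of the 19 at an unadjusted p under 0.05. The 2 medians were 0.33 and 0.05 log2 on narrow arrays, and 2.22 and 0.92 log2 on wide arrays. Cubn, cubilin, the large endocytic receptor for vitamin B12 complexes and lipoproteins, was at 9.42, 10.79 and 10.81 at day 7, against 5.05, 5.09 and 5.99 at day 0. Its rise was 4.30 ± 0.43 log2 or 19.7-fold (adjusted p = 1.75e-05), without overlap. The proteins that work with cubilin followed: Amn, its membrane anchor, with 1.45 ± 0.33 log2, Lrp2, megalin, with 1.75 ± 0.18 log2, and Dab2, the adaptor that links them to clathrin, with 2.43 ± 0.15 log2 (adjusted p = 0.0153, 2.4e-05 and 2.77e-07). The fifth listed gene was Cited1, at 0.91 ± 0.25 log2 (adjusted p = 0.0398), which encodes a transcriptional coactivator and not a part of the uptake apparatus. Afp, alpha-fetoprotein, the classic secreted product, read 6.61, 7.19 and 8.24 at day 7, against 5.59, 5.66 and 4.48 at day 0. Every day 7 array exceeded every day 0 array, but at 1.85 ± 0.63 log2 the gene did not pass (adjusted p = 0.108). Ttr, transthyretin, had 0.96 ± 0.46 log2 and Rbp4, the carrier of retinol, 1.03 ± 0.51 log2, and neither passed (adjusted p = 0.292 and 0.32). The call of Amn (adjusted p = 0.0758 to 0.149) was lost without day 7 replicates 2 or 3 or without day 0 replicate 3. The call of Cited1 (adjusted p = 0.0759 to 0.349) was lost without day 7 replicates 1, 2 or 3 or without day 0 replicate 3. The number of members that rose was 3 without day 7 replicate 2, day 7 replicate 3 or day 0 replicate 3, and in the last case the median of all 28 members was 0.21 log2, beside 0.67 log2 with all arrays.

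Other large rises fell outside the lists. Srgn, serglycin, the core protein of stored proteoglycans, stood at 9.47, 10.10 and 10.07 at day 7, against 5.97, 5.94 and 6.41 at day 0. It rose by 3.51 ± 0.16 log2 (adjusted p = 3.93e-09). Car4, a membrane-bound carbonic anhydrase, rose by 3.41 ± 0.35 log2, and Aqp8, a water channel, by 2.89 ± 0.39 log2 (adjusted p = 2.13e-05 and 0.000275). Nxf7, a relative of mRNA export factors, rose by 2.88 ± 0.40 log2 (adjusted p = 0.000329).

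**Figure D2:**
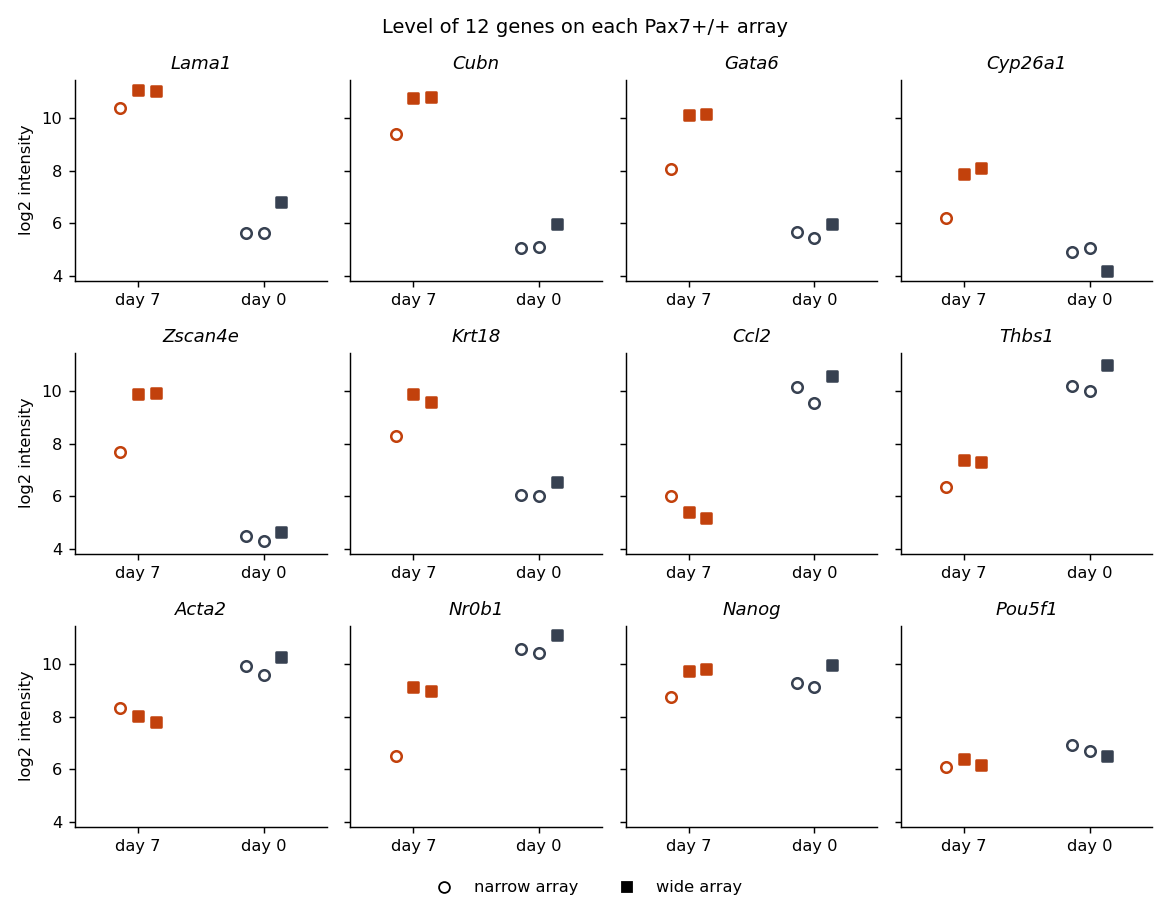
Log2 intensity of 12 genes on each Pax7+/+ array, day 7 left of day 0, with circles for narrow and squares for wide arrays. Lama1, Cubn, Gata6, Cyp26a1, Zscan4e and Krt18 lie higher at day 7, Ccl2, Thbs1, Acta2 and Nr0b1 lie lower, and Nanog and Pou5f1 did not pass.

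Epithelial and mesenchymal genes parted. Of 23 measured genes 39.1% passed, beside 5.69% of all genes. Of 14 measured epithelial genes 5 rose and none fell, and of 9 mesenchymal genes 4 fell and none rose (medians 0.44 and -0.77 log2). The 2 medians were 0.05 and -0.35 log2 on narrow arrays, and 0.60 and -0.82 log2 on wide arrays. Krt18, the partner of Krt8 in the keratin pair of simple epithelia, read 8.30, 9.90 and 9.58 at day 7, against 6.05, 6.02 and 6.54 at day 0. Krt8 read 8.25, 9.61 and 9.67 at day 7, against 7.25, 6.74 and 6.48 at day 0. Their differences were 2.60 ± 0.22 log2 and 2.03 ± 0.34 log2 (adjusted p = 3.43e-06 and 0.00154) and every day 7 array lay above every day 0 array. Cldn6, a tight junction claudin of early epithelia, rose by 1.17 ± 0.20 log2 (adjusted p = 0.002), as did the keratin genes Krt19 at 1.36 ± 0.36 log2 and Krt7 at 0.69 ± 0.18 log2 (adjusted p = 0.0389 and 0.03). The junction genes Cdh1 and Epcam, expressed in stem cells already, had 0.09 ± 0.20 log2 and -0.31 ± 0.20 log2 and did not pass (adjusted p = 0.897 and 0.491). On the mesenchymal side Prrx1, a homeobox gene of limb mesenchyme, fell by 1.51 ± 0.28 log2, and Cdh11, the mesenchymal cadherin, fell by 1.27 ± 0.17 log2 (adjusted p = 0.00431 and 0.000273). The other 2 that fell were Snai2, a repressor of epithelial genes (-0.77 ± 0.21 log2, adjusted p = 0.0454), and Vim, vimentin (-0.91 ± 0.15 log2, adjusted p = 0.00125). Without day 7 replicate 2, day 7 replicate 3 or day 0 replicate 3, 3 of the 23 genes rose. The calls of Krt19 (adjusted p = 0.12 to 0.292) and Krt7 (adjusted p = 0.0863 to 0.257) were lost without day 7 replicates 2 or 3 or without day 0 replicate 3. The call of Snai2 (adjusted p = 0.0747 to 0.194) was lost without day 7 replicates 2 or 3 or without day 0 replicates 1, 2 or 3.

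Pluripotency genes fell in part. Of 32 measured pluripotency genes 7 were lower and 1 was higher (25%, beside 5.69% of all genes), with a median of -0.49 log2. The difference was negative for 29 of the 32, and the median was -0.53 log2 on narrow and -0.65 log2 on wide arrays. The number lower depended on the fit, with 16 on the 6 Pax7+/+ arrays alone and 6 to 8 with any 1 array left out. Of 16 naive factors 3 were lower and 1 was higher (median -0.46 log2). Of 4 core factors 2 were lower, and so were 2 of 12 genes shared with the later, primed state (medians -0.53 and -0.49 log2). Nr0b1, which encodes the nuclear receptor Dax1 of naive cells, stood at 6.49, 9.14 and 8.999 at day 7, against 10.59, 10.43 and 11.12 at day 0. It fell by 2.92 ± 0.45 log2 (adjusted p = 0.000906), and every day 7 array lay below every day 0 array. Klf4 and Tfcp2l1, factors that keep the naive state downstream of LIF, differed by -1.43 ± 0.16 log2 and -1.17 ± 0.22 log2 (adjusted p = 6.52e-05 and 0.00415). Tdgf1, the Nodal coreceptor Cripto, differed by -1.67 ± 0.31 log2, Utf1 by -1.14 ± 0.28 log2 and Sox2 by -0.998 ± 0.21 log2 (adjusted p = 0.00387, 0.0249 and 0.00883). The other 2 that passed were Sall4, a zinc finger factor, at -0.59 ± 0.11 log2, and Fbxo15, a target of Oct4, at 0.75 ± 0.13 log2 (adjusted p = 0.00458 and 0.00273). Nanog read 8.76, 9.74 and 9.84 at day 7, against 9.30, 9.12 and 9.97 at day 0, a difference of -0.40 ± 0.33 log2 that did not pass (adjusted p = 0.618). Pou5f1, the gene of Oct4, read 6.07, 6.37 and 6.17 at day 7, against 6.92, 6.71 and 6.50 at day 0, at -0.46 ± 0.19 log2 (adjusted p = 0.203). Both were lower at day 7 within each set, and neither passed. For Zfp42, the gene of Rex1, the difference was -0.66 ± 0.38 log2 (adjusted p = 0.409). The call of Utf1 (adjusted p = 0.0519 to 0.0991) was lost without day 7 replicates 1, 2 or 3 or without day 0 replicates 1 or 2.

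Nanog carries a composite Oct-Sox element, where Oct4 and Sox2 bind side by side, in its proximal promoter, and the stretch is shown as the context in which these factors act on it. The 250 bases before an annotated start, at chr6:122707315-122707564 on the plus strand of GRCm38.p6 (RefSeq), are printed 5′ to 3′ with the element in capitals.
Nanog promoter: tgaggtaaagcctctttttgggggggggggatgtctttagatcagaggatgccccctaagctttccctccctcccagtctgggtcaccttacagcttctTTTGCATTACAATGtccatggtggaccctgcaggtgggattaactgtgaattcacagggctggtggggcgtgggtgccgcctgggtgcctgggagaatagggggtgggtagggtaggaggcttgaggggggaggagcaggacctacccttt
Searched on both strands in a form chosen after a stricter one matched no gene that passed, the element lay between 250 bases before and 50 bases after the start in 24 of 16990 genes with a RefSeq promoter (0.141%). It was found in 1 of 431 genes that were higher (0.232%), which was Hoxb1, in 2 of 563 genes that were lower (0.355%), and in 1 of 21 genes of the pluripotency list, Nanog itself. These counts depend on that choice of form, so they are no test of the element among genes that passed.

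The LIF pathway changed at its receptor and at some targets. Of 15 genes 1 was higher and 4 were lower (33.3%, beside 5.69% of all genes). Lifr, the receptor subunit, rose by 0.998 ± 0.14 log2 (adjusted p = 0.000275). Pim3, a kinase gene induced by Stat3, stood at 6.93, 8.09 and 7.45 at day 7, against 8.43, 8.81 and 9.86 at day 0. It fell by 1.82 ± 0.21 log2 (adjusted p = 6.43e-05), with the day 7 arrays below those of day 0 in each set. The others were Klf4, Tfcp2l1 and the AP-1 gene Junb at -0.59 ± 0.15 log2 (adjusted p = 0.0313). The transducers Stat3 and Jak1 had -0.27 ± 0.14 log2 and -0.17 ± 0.13 log2 and did not pass (adjusted p = 0.355 and 0.588). The call of Junb (adjusted p = 0.0544 to 0.255) was lost without day 7 replicates 2 or 3 or without day 0 replicates 1 or 3.

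In the primed epiblast list, for the state that follows naive pluripotency in the embryo, none of 13 genes passed in limma, with 3 at an unadjusted p under 0.05 and a median of 0.07 log2. Fgf5, its classic marker, read 4.98, 5.97 and 5.93 at day 7, against 4.81, 4.91 and 4.15 at day 0. Its difference was 0.91 ± 0.28 log2 (adjusted p = 0.074). Of 4 measured genes for the oxidation and repair of methylcytosine 2 fell, Tet1 at -1.38 ± 0.16 log2 and Tet2 at -1.09 ± 0.17 log2 (adjusted p = 5.15e-05 and 0.000959). The other 2 had positive differences of at most 0.46 log2 and did not pass. Among 9 genes of DNA methylation in all, 3 fell and none rose (33.3%, beside 5.69% of all genes). The third that fell was Uhrf1, the cofactor of maintenance methylation, at -0.58 ± 0.13 log2 (adjusted p = 0.0179). Dnmt1 and Dnmt3b had -0.23 ± 0.15 log2 and 0.12 ± 0.20 log2 and did not pass. Of 11 Polycomb genes 4 fell, the only members to pass of 19 in their list of chromatin regulators (21.1%, beside 5.69% of all genes). Eed and Jarid2, which belong to the complex that methylates H3K27, were at -1.27 ± 0.14 log2 and -1.21 ± 0.16 log2, and Cbx7 and Mtf2 at -0.53 ± 0.14 log2 and -0.50 ± 0.12 log2 (adjusted p = 3.59e-05, 0.000286, 0.0311 and 0.0233). Without day 7 replicate 1, day 7 replicate 3, day 0 replicate 2 or day 0 replicate 3, 2 genes of the list that holds the Polycomb genes fell. The calls of Uhrf1 (adjusted p = 0.0517 to 0.0621) and Mtf2 (adjusted p = 0.0511 to 0.142) were lost without day 7 replicates 1, 2 or 3 or without day 0 replicates 2 or 3. The call of Cbx7 (adjusted p = 0.0567 to 0.189) was lost without day 7 replicates 1 or 3 or without day 0 replicates 1, 2 or 3.

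Genes of the rare 2-cell-like state of stem cell cultures were higher at day 7. Of 16 measured, 6 rose and none fell (37.5%, beside 5.69% of all genes), with a median of 0.97 log2. Zscan4e stood at 7.68, 9.89 and 9.93 at day 7, against 4.47, 4.29 and 4.65 at day 0. Its rise was 4.22 ± 0.67 log2 or 18.6-fold (adjusted p = 0.00118), and every day 7 array lay above every day 0 array. Zscan4b rose by 3.48 ± 0.64 log2, Zscan4c by 2.78 ± 0.57 log2 and Zscan4d by 2.53 ± 0.41 log2 (adjusted p = 0.00369, 0.00783 and 0.00142). Tdpoz3, of a family of early embryo BTB genes, rose by 2.54 ± 0.46 log2, and Usp17ld, of a family of deubiquitinases, by 1.71 ± 0.41 log2 (adjusted p = 0.00339 and 0.0197). Pramel19, of the PRAME-like family and not in the list, was at 6.03, 9.001 and 9.19 at day 7, against 4.27, 4.28 and 4.25 at day 0. It rose by 3.38 ± 0.65 log2 (adjusted p = 0.00493). These families hold near-identical copies whose signals the probe sets may share, so the genes are not independent and the source of each reading is uncertain. On the narrow arrays the median of the list was 0.25 log2 and on the wide arrays 1.16 log2. Without day 7 replicate 1, 11 of the 16 rose. The calls of Zscan4c (adjusted p = 0.0833) and Pramel19 (adjusted p = 0.0523) were lost without day 0 replicate 3. The call of Usp17ld (adjusted p = 0.0828 to 0.143) was lost without day 7 replicates 2 or 3 or without day 0 replicate 3.

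Retinoic acid genes rose mainly among its known targets. Of 30 measured in all, 7 rose and none fell (23.3%, beside 5.69% of all genes). Of the 7, 5 are among 11 targets, whose median was 0.99 log2 beside 0.01 log2 over 6 receptors. The median of the targets was 0.29 log2 on narrow and 1.49 log2 on wide arrays. Cyp26a1, the enzyme that clears retinoic acid and is itself induced by it, stood at 6.203, 7.89 and 8.10 at day 7, against 4.90, 5.07 and 4.17 at day 0. Its rise was 2.52 ± 0.38 log2 (adjusted p = 0.000771), without overlap. Stra6, the receptor that takes up retinol, rose by 2.21 ± 0.34 log2 and Meis2, a Hox cofactor, by 1.41 ± 0.30 log2 (adjusted p = 0.000762 and 0.0112). Stra8, a trigger of meiosis named for its induction by the acid, rose by 1.19 ± 0.32 log2, Hoxb1 by 1.17 ± 0.29 log2 and the transglutaminase gene Tgm2 by 0.99 ± 0.26 log2 (adjusted p = 0.0402, 0.0279 and 0.0348). Rarb, the receptor gene with the best known response element, read 5.20, 5.79 and 5.88 at day 7, against 4.997, 4.99 and 4.44 at day 0. Its day 7 arrays all lay above those of day 0, but 0.87 ± 0.29 log2 did not pass (adjusted p = 0.0991). The number of members that rose was 2 without day 0 replicate 3, 3 without day 7 replicate 3, 4 without day 7 replicate 2 and 11 without day 7 replicate 1. On the narrow arrays alone 2 rose. The call of Meis2 (adjusted p = 0.0581 to 0.118) was lost without day 7 replicate 3 or without day 0 replicate 3. The call of Stra8 (adjusted p = 0.0597 to 0.241) was lost without day 7 replicates 2 or 3 or without day 0 replicates 1, 2 or 3. The call of Tgm2 (adjusted p = 0.0668 to 0.23) was lost without day 7 replicates 2 or 3 or without day 0 replicates 1 or 3.

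The promoters of Cyp26a1 and Rarb are shown because each holds a DR5 element, a pair of half-sites 5 bases apart to which retinoic acid receptors bind. The 250 bases before the start are given from RefSeq on GRCm38.p6, for Cyp26a1 at chr19:37697558-37697807 on the plus strand and for Rarb at chr14:16575477-16575726 on the minus strand, 5′ to 3′ with the element in capitals.
Cyp26a1 promoter: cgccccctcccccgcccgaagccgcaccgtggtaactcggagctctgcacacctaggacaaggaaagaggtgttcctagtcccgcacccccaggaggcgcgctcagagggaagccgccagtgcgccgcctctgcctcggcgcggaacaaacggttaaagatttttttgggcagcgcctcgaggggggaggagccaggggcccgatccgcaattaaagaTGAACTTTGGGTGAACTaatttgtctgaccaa
Rarb promoter: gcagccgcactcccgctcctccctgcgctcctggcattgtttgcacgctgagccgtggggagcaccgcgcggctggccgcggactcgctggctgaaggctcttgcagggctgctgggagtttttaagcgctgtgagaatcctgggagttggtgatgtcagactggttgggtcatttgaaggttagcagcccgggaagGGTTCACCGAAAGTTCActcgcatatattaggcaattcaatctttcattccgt
In Cyp26a1 the element lies 32 to 16 bases before the start and in Rarb 53 to 37 bases before it. Searched on both strands between 250 bases before and 50 bases after the start, DR5 elements were found in 13 of 16990 genes (0.0765%). They lay in 1 of 431 genes that were higher, which was Cyp26a1, in 0 of 563 that were lower, and in 2 of 22 genes of the retinoic acid list.

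The count of Hox genes, which retinoic acid opens from the 3′ end of each cluster, turned on single arrays. Of 36 measured, 3 were higher and 1 lower (11.1%, beside 5.69% of all genes), with a median of 0.34 log2. Hoxb1 read 6.07, 5.35 and 5.99 at day 7, against 5.73, 5.65 and 3.85 at day 0, so that the wide day 0 array was the lowest and the narrow arrays differed by 0.38 log2. Hoxd3 and Hoxa3 had 0.56 ± 0.14 log2 and 0.54 ± 0.12 log2, and Hoxd10 -0.50 ± 0.14 log2 (adjusted p = 0.0253, 0.0167 and 0.0447). Without day 0 replicate 3, without day 7 replicate 3, and on the narrow arrays alone, 0 of the 36 passed in limma, with 8, 11 and 6 at an unadjusted p under 0.05. Without day 7 replicate 2, 1 gene was higher. Without day 7 replicate 1, 12 were higher with a median of 0.55 log2, and on the wide arrays alone 15 were higher and 4 lower. The call of Hoxb1 (adjusted p = 0.0799 to 0.218) was lost without day 7 replicates 2 or 3 or without day 0 replicate 3. The call of Hoxd3 (adjusted p = 0.0619 to 0.129) was lost without day 7 replicates 2 or 3 or without day 0 replicates 1 or 3. The call of Hoxa3 (adjusted p = 0.0792 to 0.112) was lost without day 7 replicate 3 or without day 0 replicate 3. The call of Hoxd10 (adjusted p = 0.0865 to 0.317) was lost without day 7 replicates 1, 2 or 3 or without day 0 replicates 2 or 3.

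Neural genes passed at shares near that of all genes, 5.69%. Of 36 genes of neural progenitors 3 rose and none fell (8.33%, median 0.12 log2), and of 33 proneural and neuronal genes none rose and 1 fell (3.03%, median 0.07 log2). Without day 0 replicate 3 the medians were -0.13 and -0.09 log2, and 1 progenitor gene rose, as it did without day 7 replicate 3. Fabp7, the fatty acid binding protein of radial glia, stood at 7.99, 10.08 and 9.87 at day 7, against 5.74, 5.74 and 5.10 at day 0. It rose by 3.36 ± 0.62 log2 (adjusted p = 0.00401). Prtg, protogenin, rose by 2.20 ± 0.48 log2 and Zic1, a zinc finger factor of the dorsal neural tube, by 1.004 ± 0.27 log2 (adjusted p = 0.0112 and 0.0359). Sox1 and Pax6, which define neural progenitors, had 0.15 ± 0.26 log2 and 0.18 ± 0.18 log2, and Tubb3, the neuronal tubulin, -0.30 ± 0.16 log2, and none of them passed (adjusted p = 0.865, 0.715 and 0.369). Stmn2, a stathmin of growth cones, fell by 1.90 ± 0.17 log2 (adjusted p = 5.21e-06). The call of Prtg (adjusted p = 0.0572 to 0.114) was lost without day 7 replicate 3 or without day 0 replicate 3. The call of Zic1 (adjusted p = 0.103 to 0.318) was lost without day 7 replicates 2 or 3 or without day 0 replicate 3.

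In the mesoderm lists the share that passed was 0 to 8.33%, beside 5.69% of all genes. In the primitive streak list 1 of 20 genes rose, Dkk1, a secreted Wnt inhibitor, at 1.33 ± 0.29 log2 (adjusted p = 0.0119). None of 16 skeletal muscle genes passed in limma, nor had any an unadjusted p under 0.05, 1 of 24 cardiac genes rose (Gata4), and 1 of 22 paraxial genes, Pdgfra, which also marks primitive endoderm (1.41 ± 0.30 log2, adjusted p = 0.00968). Among 24 genes of blood and endothelium Kit, the stem cell factor receptor, rose by 2.43 ± 0.22 log2 and Gata2 by 1.49 ± 0.35 log2 (adjusted p = 4.98e-06 and 0.0176). Kit read 7.94, 9.13 and 9.21 at day 7, against 5.84, 5.93 and 6.11 at day 0, without overlap. The reading for Pax7, which marks muscle progenitors, differed by 0.04 ± 0.24 log2 (adjusted p = 0.964). The calls of Dkk1 (adjusted p = 0.0576 to 0.0603), Pdgfra (adjusted p = 0.05 to 0.0885) and Gata2 (adjusted p = 0.0882 to 0.102) were lost without day 7 replicates 2 or 3 or without day 0 replicate 3.

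Trophoblast and imprinted genes rose in part. Of 14 trophoblast genes 6 were higher and none lower (42.9%, beside 5.69% of all genes, median 0.68 log2). The median was 0.28 log2 on narrow and 0.92 log2 on wide arrays, and 4 rose without day 7 replicate 2 or day 0 replicate 3. The largest rise was that of Peg10, a retrotransposon-derived gene needed for the placenta, with 1.52 ± 0.14 log2 (adjusted p = 5.36e-06). The X-linked homeobox genes Rhox6 and Esx1 rose by 1.44 ± 0.25 log2 and 1.28 ± 0.24 log2, and the surface gene Plet1 by 0.85 ± 0.17 log2 (adjusted p = 0.00252, 0.00444 and 0.00749), with Krt7 and Rhox9 (0.68 ± 0.15 log2, adjusted p = 0.0126) the others. Of 19 imprinted genes 6 rose and 1 fell (36.8%, beside 5.69% of all genes), with a median of 0.62 log2. Igf2, the paternally expressed growth factor, stood at 8.83, 9.17 and 9.18 at day 7, against 6.18, 6.96 and 6.23 at day 0. It rose by 2.51 ± 0.30 log2, Peg3, a zinc finger gene, by 2.16 ± 0.18 log2 and Cdkn1c, a cell cycle inhibitor, by 1.24 ± 0.29 log2 (adjusted p = 9.54e-05, 2.84e-06 and 0.017). Day 7 arrays of Igf2 and Peg3 all exceeded those of day 0. Mest had 0.93 ± 0.26 log2, and Grb10, an inhibitor of insulin signalling, fell by 1.14 ± 0.29 log2 (adjusted p = 0.0472 and 0.0308). The number of imprinted genes that rose was 3 without day 0 replicate 3, day 7 replicate 2 or day 7 replicate 3. Their median was 0.31 log2 without day 0 replicate 3 and 0.39 log2 without day 7 replicate 1. The call of Rhox9 (adjusted p = 0.0673 to 0.137) was lost without day 7 replicate 2 or without day 0 replicate 3. The call of Cdkn1c (adjusted p = 0.0693 to 0.157) was lost without day 7 replicates 2 or 3 or without day 0 replicate 3. The call of Mest (adjusted p = 0.0576 to 0.152) was lost whichever array was left out. The call of Grb10 (adjusted p = 0.073 to 0.149) was lost without day 7 replicates 1, 2 or 3 or without day 0 replicates 1 or 3.

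Genes of fibroblasts and their matrix fell in part. Of 32 measured 11 were lower and 2 higher (40.6%, beside 5.69% of all genes). The median was -0.75 log2, with -0.23 log2 on narrow and -1.02 log2 on wide arrays. Tnc, the matrix glycoprotein tenascin-C, stood at 5.71, 7.08 and 7.08 at day 7, against 10.06, 9.73 and 10.59 at day 0. It fell by 4.09 ± 0.32 log2 (adjusted p = 1.45e-06). Thbs1, thrombospondin-1, read 6.34, 7.38 and 7.31 at day 7, against 10.19, 9.997 and 10.998 at day 0. It fell by 3.86 ± 0.18 log2 (adjusted p = 4.6e-09), and for both genes every day 7 array lay below every day 0 array. The small proteoglycan genes Bgn and Dcn had -3.23 ± 0.33 log2 and -3.06 ± 0.31 log2, the protease inhibitor Timp1 -2.77 ± 0.19 log2 and the calcium binding protein S100a6 -2.72 ± 0.39 log2 (adjusted p = 1.83e-05, 1.58e-05, 4.06e-07 and 0.000506). Outside the list, Lox, which cross-links collagen, had -3.09 ± 0.45 log2, Grem1, a secreted BMP inhibitor, -3.69 ± 0.44 log2 and Igfbp7, a secreted binding protein, -3.05 ± 0.23 log2 (adjusted p = 0.000526, 9.54e-05 and 1.34e-06). In the list the 2 that rose were Pdgfra and Tgfbi, a secreted target of TGF-beta (1.63 ± 0.42 log2, adjusted p = 0.0331). The lower members numbered 10 to 15 with any 1 array left out and 10 on the narrow arrays alone. The call of Tgfbi (adjusted p = 0.103 to 0.302) was lost without day 7 replicates 2 or 3 or without day 0 replicate 3.

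Others of the 12 largest falls belonged to none of the lists. Ccl2, a chemokine for monocytes, was at 6.01, 5.40 and 5.16 at day 7, against 10.16, 9.55 and 10.57 at day 0. Its fall was the largest of all genes, at -4.87 ± 0.45 log2 (adjusted p = 6.57e-06). Ccl7, its neighbour in the chemokine cluster, had -4.12 ± 0.49 log2, Ptgs2, the inducible cyclooxygenase, -4.52 ± 0.34 log2, and Mmp13, a collagenase, -4.51 ± 0.63 log2 (adjusted p = 9.54e-05, 9.79e-07 and 0.000366). Chosen after their values were seen, the cytokine genes Csf1 and Cxcl5 had -1.83 ± 0.24 log2 and -1.52 ± 0.31 log2, and Cxcl1 and Il6 -1.30 ± 0.29 log2 and -2.04 ± 0.57 log2 (adjusted p = 0.00025, 0.00767, 0.0134 and 0.0482). Of 15 genes of the interferon response and MHC class I, 5 fell and none rose (33.3%, beside 5.69% of all genes, median -0.45 log2). They were B2m, the light chain of class I molecules, at -2.50 ± 0.28 log2, Usp18 at -2.30 ± 0.31 log2, Ifit1 at -2.06 ± 0.42 log2, Ifitm3 at -1.77 ± 0.18 log2 and Isg15 at -0.58 ± 0.16 log2 (adjusted p = 4.41e-05, 0.0003, 0.00806, 2.39e-05 and 0.0429). Without day 0 replicate 3, 3 of the 15 fell and the median was -0.18 log2. The calls of Cxcl1 (adjusted p = 0.0683 to 0.128) and Il6 (adjusted p = 0.149 to 0.165) were lost without day 7 replicates 2 or 3 or without day 0 replicate 3. The call of Ifit1 (adjusted p = 0.0546) was lost without day 0 replicate 3. The call of Isg15 (adjusted p = 0.0556 to 0.382) was lost without day 7 replicates 1, 2 or 3 or without day 0 replicates 1 or 3.

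Smooth muscle genes fell as well. Of 13 measured, 4 fell and none rose (30.8%, beside 5.69% of all genes). The median was -0.47 log2, with -0.17 log2 on narrow and -0.76 log2 on wide arrays. Acta2, smooth muscle actin, stood at 8.34, 8.03 and 7.79 at day 7, against 9.94, 9.59 and 10.26 at day 0. It fell by 2.06 ± 0.24 log2 (adjusted p = 6.52e-05), without overlap. Myl9, a myosin light chain, and Tagln and Cnn1, the actin-binding proteins transgelin and calponin, had -1.54 ± 0.22 log2, -1.39 ± 0.18 log2 and -1.14 ± 0.17 log2 (adjusted p = 0.000366, 0.000205 and 0.000561). All 4 passed whichever array was left out.

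Marker lists for the cell types that such cultures can hold moved as follows. The mean level of 7 fibroblast markers was 5.44, 5.68 and 5.58 log2 at day 7, against 6.08, 5.99 and 7.09 log2 at day 0, lower within each set. Of the 7, Dcn and the surface gene Thy1 (-1.64 ± 0.27 log2, adjusted p = 0.00142) fell, and 5 did not pass, among them Col1a1, the main collagen of fibroblasts, which read 7.06, 6.97 and 6.81 at day 7, against 7.41, 7.24 and 8.15 at day 0 (adjusted p = 0.167). The part of fibroblasts in the falls of matrix, chemokine and smooth muscle genes was not tested, and fewer cells of a type and less RNA per cell cannot be told apart in such bulk samples. The mean of 6 endoderm markers was 7.34, 8.02 and 8.26 log2 at day 7, against 6.49, 6.48 and 5.46 log2 at day 0, higher on every day 7 array. For 6 markers of undifferentiated cells it was 6.36, 6.99 and 7.02 log2 at day 7, against 7.10, 6.95 and 7.56 log2 at day 0, lower within each set. Of 4 measured mesoderm markers 1 rose, and none passed in limma of 4 neural, 4 trophoblast and 2 germ line markers.

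Immediate early and stress genes fell in part. Of 27 measured, 13 fell and 1 rose (51.9%, beside 5.69% of all genes). The median was -0.71 log2, with -0.35 log2 on narrow and -0.92 log2 on wide arrays. The number that fell was 9 without day 7 replicate 2, day 7 replicate 3 or day 0 replicate 3, and 14 without day 7 replicate 1. Egr1, an immediate early factor, read 5.66, 6.93 and 7.32 at day 7, against 7.12, 7.16 and 8.45 at day 0. It fell by 1.39 ± 0.13 log2 (adjusted p = 7.75e-06). Ier3 and Fosb had -1.74 ± 0.14 log2 and -1.50 ± 0.25 log2, Fos -1.38 ± 0.29 log2 and Dusp1, a phosphatase of the MAP kinases, -1.29 ± 0.17 log2 (adjusted p = 2.64e-06, 0.00156, 0.00984 and 0.000247). Among 12 genes of amino acid and endoplasmic reticulum stress 6 fell, led by Shmt2, the mitochondrial serine hydroxymethyltransferase, at -1.17 ± 0.17 log2 (adjusted p = 0.000638), and 1 rose, the chaperone gene Hspa5 at 0.58 ± 0.12 log2 (adjusted p = 0.0101). Within each set the values of Egr1, Ier3 and Shmt2 were lower at day 7. The call of Fos (adjusted p = 0.0528 to 0.0806) was lost without day 7 replicate 2 or without day 0 replicate 3. The call of Hspa5 (adjusted p = 0.0572 to 0.116) was lost without day 7 replicate 1 or without day 0 replicate 3.

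Some signalling genes passed, in 21.7% of the FGF, 30.4% of the BMP and 11.1% of the Wnt list, beside 5.69% of all genes. In the FGF pathway the receptor gene Fgfr2 rose by 1.24 ± 0.29 log2 (adjusted p = 0.0195), and 4 of 12 targets and inhibitors fell, Spry2 at -1.07 ± 0.13 log2, Dusp6 at -0.89 ± 0.14 log2, Dusp5 at -0.75 ± 0.16 log2 and Etv5 at -0.74 ± 0.18 log2 (adjusted p = 0.000105, 0.00113, 0.00901 and 0.0201). In the BMP pathway 5 of 23 genes rose and 2 fell. Fst, follistatin, which binds activin, rose by 1.55 ± 0.25 log2, the target gene Id2 by 1.10 ± 0.15 log2 and the receptor Bmpr2 by 0.94 ± 0.12 log2 (adjusted p = 0.00137, 0.000275 and 0.000185). The others that rose were Bmper, a secreted modulator, at 1.17 ± 0.23 log2 and the receptor Bmpr1a at 0.55 ± 0.13 log2, while the ligand Bmp4 fell by 0.92 ± 0.25 log2 (adjusted p = 0.0053, 0.0165 and 0.0409) with Grem1. Inhba, a subunit of activin, was at 5.75, 4.93 and 4.92 at day 7, against 7.37, 6.66 and 9.13 at day 0. It fell by 2.59 ± 0.59 log2 (adjusted p = 0.0161). Of 36 Wnt genes 2 rose, the inhibitors Frzb at 1.89 ± 0.45 log2 and Dkk1, and 2 receptors fell, Fzd5 at -1.08 ± 0.17 log2 and Fzd7 at -0.51 ± 0.13 log2 (adjusted p = 0.0195, 0.00113 and 0.0268). None of 19 Notch and 11 Hedgehog genes passed in limma, with 4 of each list at an unadjusted p under 0.05. Where 5.69% of all genes passed, lists of this size can hold none. Without day 7 replicate 1, the number that rose was 4 in the FGF list and 9 in the BMP list, and 4 Wnt genes fell. Without day 0 replicate 3, 3 BMP genes rose. The calls of Fgfr2 (adjusted p = 0.0693 to 0.198), Bmpr1a (adjusted p = 0.0657 to 0.165), Inhba (adjusted p = 0.0686 to 0.163) and Frzb (adjusted p = 0.0792 to 0.176) were lost without day 7 replicates 2 or 3 or without day 0 replicate 3. The call of Etv5 (adjusted p = 0.0683 to 0.164) was lost without day 7 replicates 1 or 3 or without day 0 replicate 3. The call of Bmper (adjusted p = 0.0589) was lost without day 0 replicate 3. The call of Bmp4 (adjusted p = 0.0882 to 0.245) was lost without day 7 replicates 1, 2 or 3 or without day 0 replicates 1 or 3. The call of Fzd7 (adjusted p = 0.0519 to 0.145) was lost without day 7 replicates 1 or 3 or without day 0 replicates 1, 2 or 3.

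Some growth genes fell, and some genes of glycolysis, hypoxia and sterol synthesis rose. Of 23 replication genes 5 fell and none rose, and of 20 nucleolar genes 5 fell and none rose (medians -0.29 and -0.36 log2). These were 21.7% of the replication list and 20.8% of the Myc and nucleolus list, beside 5.69% of all genes. Mcm3, a subunit of the replicative helicase, fell by 0.84 ± 0.16 log2, and Dkc1, which modifies ribosomal RNA, fell by 1.16 ± 0.19 log2 (adjusted p = 0.00411 and 0.00167). Ccnd1, cyclin D1, stood at 6.91, 7.89 and 7.83 at day 7, against 8.72, 8.42 and 9.01 at day 0. It fell by 1.39 ± 0.18 log2 (adjusted p = 0.000146), without overlap. Of 25 genes of hypoxia and glycolysis 40% passed, beside 5.69% of all genes. Of them 9 rose and 1 fell, Hif1a at -0.63 ± 0.12 log2 (adjusted p = 0.00406). Besides P4ha1 these were led by Epas1, the HIF-2 alpha gene, at 1.68 ± 0.17 log2, Egln3, an oxygen sensor, at 1.67 ± 0.38 log2, and Slc2a1, the glucose transporter, at 1.16 ± 0.19 log2 (adjusted p = 1.58e-05, 0.0154 and 0.00154). Of 18 genes of sterol and fatty acid synthesis 4 rose and 1 fell (27.8%, beside 5.69% of all genes). Insig1, a sterol sensor, had 1.99 ± 0.19 log2, Scd1, a desaturase, 1.36 ± 0.28 log2, Fdft1, squalene synthase, 1.01 ± 0.14 log2 and Srebf2, the sterol regulatory factor, 0.66 ± 0.13 log2, while the elongase gene Elovl6 had -0.90 ± 0.21 log2 (adjusted p = 9.86e-06, 0.00751, 0.000366, 0.00675 and 0.0202). Replication genes that fell numbered 3 without day 7 replicate 2, day 7 replicate 3 or day 0 replicate 1, genes of the Myc and nucleolus list 3 without day 7 replicate 2 or day 0 replicate 1, and genes of hypoxia and glycolysis that rose 5 without day 0 replicate 3. The call of Egln3 (adjusted p = 0.0528 to 0.125) was lost without day 7 replicates 2 or 3 or without day 0 replicate 3. The call of Elovl6 (adjusted p = 0.0572 to 0.0736) was lost without day 7 replicates 1, 2 or 3 or without day 0 replicates 1 or 2.

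**Figure D3:**
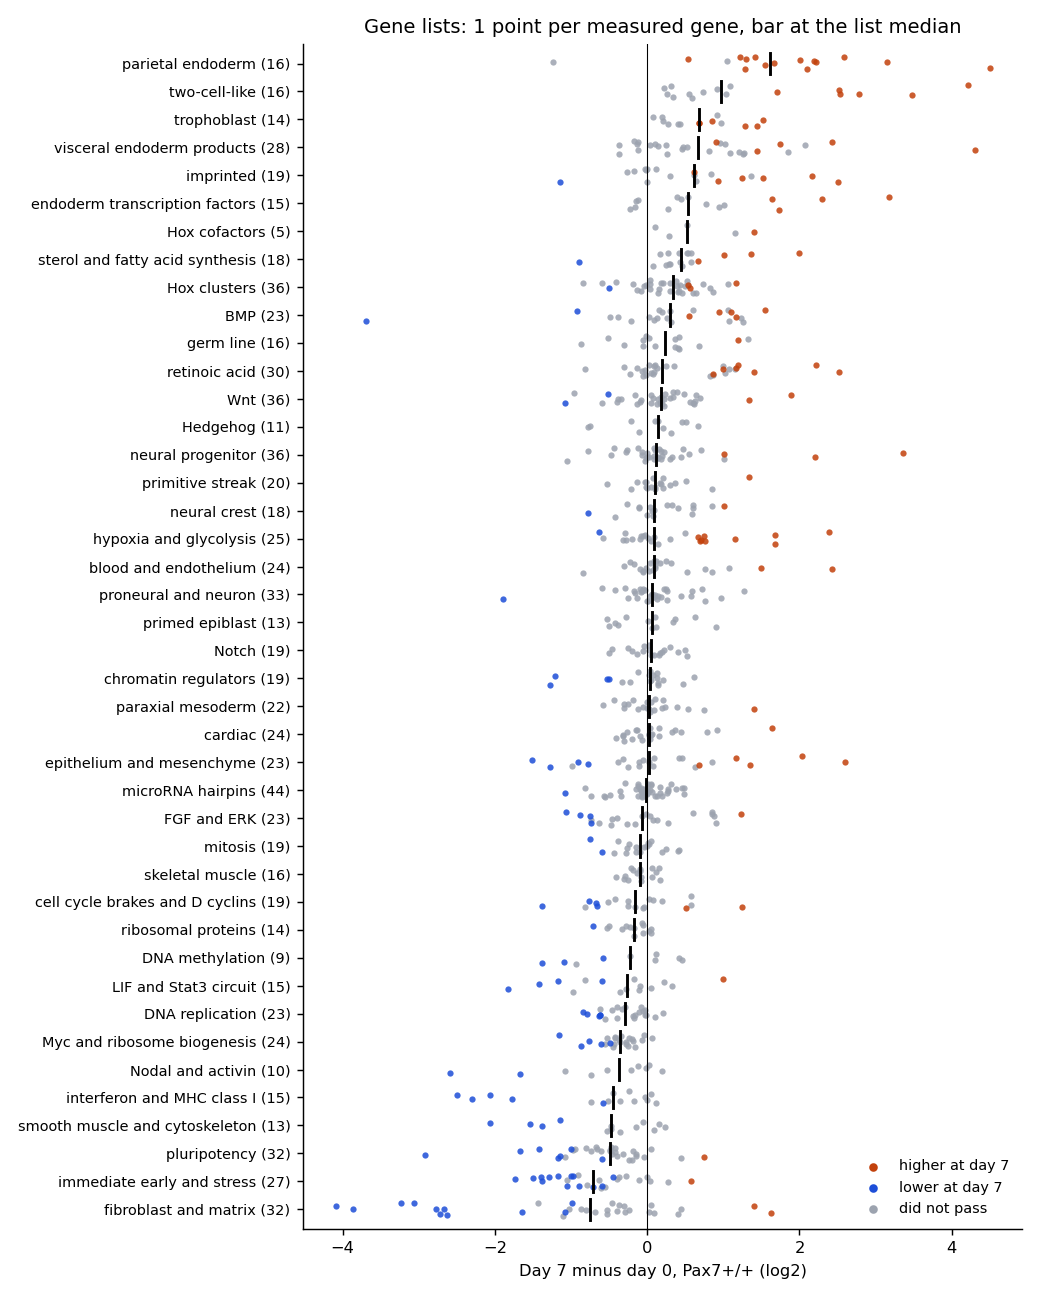
Each line of the plot is 1 of 42 gene lists, each point a gene at its difference of day 7 minus day 0 in Pax7+/+ (log2), and the bar the list median. Parietal endoderm has the highest median, 1.61 log2 with 14 of 16 genes higher, and the list of fibroblasts and matrix the lowest, -0.75 log2 with 11 of 32 lower.

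MicroRNA genes inside Sfmbt2 rose together. Sfmbt2, a Polycomb-related gene, lies at chr2:10370440-10595253 (GRCm38.p6), and holds a large array of microRNA hairpins of the families mir-297, mir-466, mir-467 and mir-669. The gene and its hairpins were chosen after their values were seen. Sfmbt2 stood at 6.05, 8.53 and 8.42 at day 7, against 4.62, 4.60 and 6.19 at day 0. It rose by 1.84 ± 0.17 log2 (adjusted p = 5.36e-06), and each day 7 array lay above the day 0 arrays of its set. Of 22 microRNA genes placed inside it by the annotation 17 rose, all 22 differences were positive, and their median was 1.08 log2, with a range of 0.35 to 2.32 log2. Of the other 456 microRNA genes 5 rose and 2 fell, with a median of 0.01 log2. The largest in the cluster were Mir669i and Mir669k. Mir669i read 5.43, 8.58 and 8.37 at day 7, against 3.80, 3.94 and 5.40 at day 0, a difference of 2.32 ± 0.28 log2, and Mir669k differed by 2.30 ± 0.28 log2 (adjusted p = 9.54e-05 and 0.000101). The hairpins are near-identical copies, 4 of the 22 genes have several probe sets, and arrays of total RNA may read precursors or the host transcript, so the 22 genes are not independent. The number of hairpins that rose was 5 without day 0 replicate 3, 10 without day 7 replicate 2, 9 without day 7 replicate 3 and 3 on the narrow arrays alone, where 19 of 22 differences were positive.

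Elsewhere 5 microRNA genes rose, also named after their values were seen: Mir3088 at 0.89 ± 0.15 log2, Mir5123 at 0.85 ± 0.18 log2, Mir149 at 0.65 ± 0.18 log2, Mir3095 at 0.64 ± 0.15 log2 and Mir761 at 0.55 ± 0.13 log2 (adjusted p = 0.00199, 0.011, 0.0409, 0.0169 and 0.0158). Mir18, part of a polycistron of dividing cells, fell by 1.08 ± 0.17 log2, and Mir23a fell by 0.95 ± 0.24 log2 (adjusted p = 0.00107 and 0.0279). Mature products of the 2 genes that fell are shown from RefSeq with the seed, bases 2 to 8, in capitals, and the 2 seeds differ.
miR-18a-5p: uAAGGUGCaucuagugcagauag
miR-23a-3p: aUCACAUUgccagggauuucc
Mir18 was the 1 gene to pass of 44 in the microRNA list (2.27%, beside 5.69% of all genes), which had a median of -0.02 log2. The call of Mir149 (adjusted p = 0.0713 to 0.16) was lost whichever array was left out. The call of Mir5123 (adjusted p = 0.0602 to 0.12) was lost without day 7 replicate 3 or without day 0 replicate 3. The call of Mir3095 (adjusted p = 0.0728 to 0.167) was lost without day 7 replicates 2 or 3 or without day 0 replicate 3. The calls of Mir761 (adjusted p = 0.0542 to 0.0802) and Mir23a (adjusted p = 0.0566 to 0.256) were lost without day 7 replicates 2 or 3 or without day 0 replicates 1 or 3.

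**Figure D4:**
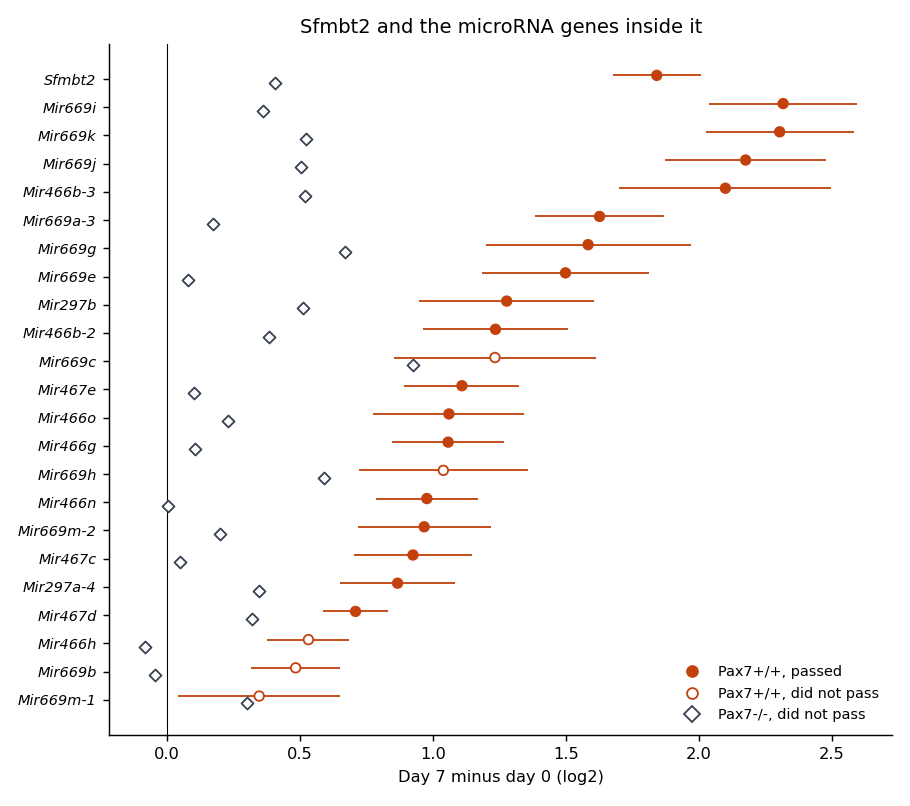
Difference of day 7 minus day 0 (log2) for Sfmbt2 and the 22 microRNA genes inside it, with circles and SE bars for Pax7+/+ and diamonds for Pax7-/-. All 22 circles lie above 0 with a median of 1.08 log2, beside 0.31 log2 for the diamonds, none of which passed.

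The same step was measured in other arrays of the study, those of Pax7-/- cells at day 7 and day 0. There 857 genes passed (3.86%), 454 higher (2.05%) and 403 lower (1.82%). Of the 1261 genes that passed in Pax7+/+, 1074 (85.2%) had the same sign in Pax7-/-, against 60.3% of all genes, and 176 were higher and 193 lower at an adjusted p under 0.05 in both. The parietal endoderm list had 10 of 16 genes higher in Pax7-/- with a median of 1.53 log2, and the pluripotency list 15 of 32 lower with a median of -1.06 log2. In Pax7-/- Nr0b1 had -3.50 log2, Peg3 2.72 log2 and Fabp7 3.16 log2 (adjusted p = 0.000213, 8.41e-07 and 0.00689). Nanog, which did not pass in Pax7+/+, had -1.93 log2 (adjusted p = 0.00246) and Afp 2.99 log2 (adjusted p = 0.0113). Whether the steps of the genotypes differed was tested as a contrast in limma, and it did not pass for Nanog, Afp, Nr0b1, Peg3 or Fabp7 (adjusted p = 0.226, 0.756, 0.836, 0.501 and 0.967).

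The steps differed in 107 genes (0.482%), 75 of them among the 1261. Those 1261 were picked by the Pax7+/+ step, which enters this contrast. Lama1 rose by 2.30 log2 more in Pax7+/+ than in Pax7-/- (SE 0.28, adjusted p = 0.0014). With replicate 2 wide and the others narrow, Lama1 in Pax7-/- read 10.49, 10.96 and 10.34 at day 7, against 7.87, 9.41 and 7.93 at day 0. The day 0 arrays of Pax7-/- lay above the day 0 arrays of Pax7+/+ of the same set, at 5.62, 5.62 and 6.82. Ccl2 in Pax7-/- read 6.18, 6.44 and 6.24 at day 7, against 7.21, 9.16 and 7.85 at day 0, and the step differed by -3.08 log2 (adjusted p = 0.0392). There the day 0 arrays of Pax7-/- lay below those of Pax7+/+ in each set, while for Sfmbt2 and Zscan4e they lay above. Sfmbt2 in Pax7-/- read 5.16, 7.61 and 5.26 at day 7, against 4.91, 6.82 and 5.08 at day 0, a difference of 0.41 log2 that did not pass (adjusted p = 0.206), and the steps differed by 1.43 log2 (adjusted p = 0.00787). The 22 hairpins had a median of 0.31 log2 in Pax7-/- with 2 at an unadjusted p under 0.05, and 1 of them, Mir669i, passed the test of the difference between steps. The 2-cell-like list gave a median of -0.20 log2 in Pax7-/- with 0 of 16 genes passing in limma or at an unadjusted p under 0.05. Zscan4e in Pax7-/- read 4.98, 8.44 and 5.53 at day 7, against 5.72, 9.12 and 5.74 at day 0, and the steps differed by 4.76 log2 (SE 0.94, adjusted p = 0.0336).

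**Figure D5:**
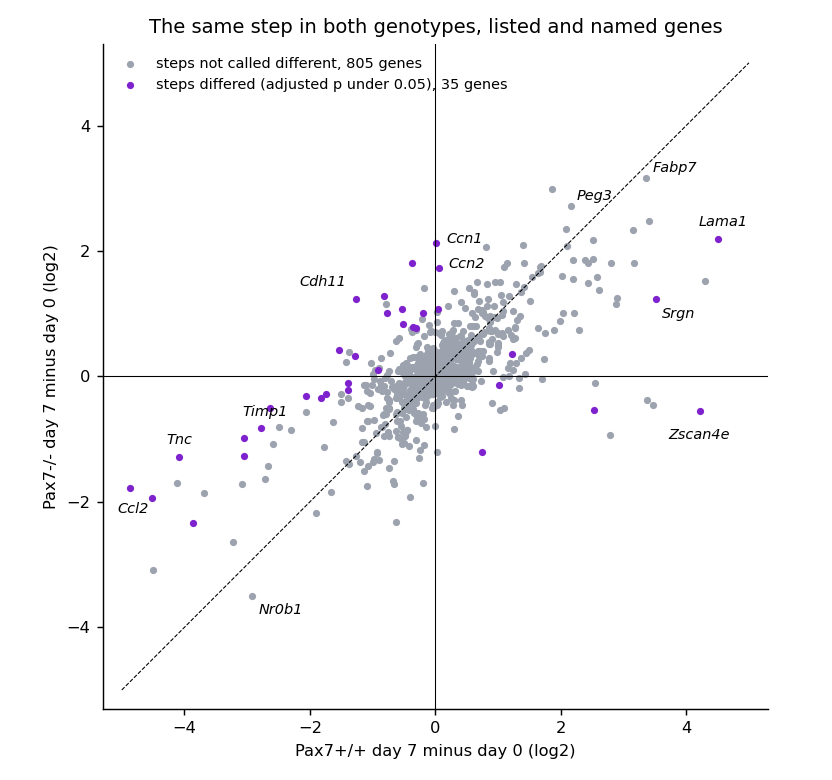
Difference of day 7 minus day 0 in Pax7+/+ (x axis, log2) and in Pax7-/- (y axis, log2) for 840 listed or named genes, of which 35 had steps that differed at an adjusted p under 0.05, with a line of equality. Over all 22180 genes the steps differed for 107 (0.482%). Lama1, Srgn, Tnc and Ccl2 moved further in Pax7+/+, and Cdh11 lies on opposite sides of 0.

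The outgrowths of day 21 gave a further step in the same genotype. Both comparisons share the day 7 arrays, so each is given by its own values. At day 21 against day 7, 1297 genes passed (5.85%). Cubn differed by -2.84 log2 at day 21 against day 7, Cyp26a1 by -1.89 log2 and Zscan4e by -4.62 log2 (adjusted p = 0.00105, 0.00743 and 0.000699). Lama1 and Gata6 had 0.52 and 0.42 log2 and did not pass (adjusted p = 0.168 and 0.472). Nanog and Tdgf1 had -3.52 and -3.16 log2 (adjusted p = 2.38e-05 and 3.18e-05). Ccl2, Thbs1 and Dcn were higher at day 21 than at day 7, by 2.32, 2.38 and 2.84 log2 (adjusted p = 0.00532, 3.67e-06 and 6.55e-05).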

How the data were processed

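The authors deposited log2 intensities of 18 Affymetrix arrays for 41345 probe sets. RMA and Partek are named in the submitters' processing notes, with no version or order, and scanner files were not used here. Of the probe sets, 23521 had 1 gene symbol in the platform annotation, 1814 had several and 16010 none. Each of 22180 genes was read from 1 probe set, its brightest on average across the 18 arrays, without a filter on dim genes, and 21994 genes matched RefSeq on GRCm38.p6.

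Groups were taken from the titles. An array was wide where the standard deviation over its probe sets exceeded 1.6, otherwise narrow, and what set the 2 kinds apart is not given in the sources used here. A linear model with 6 group means and the array set (11 residual degrees of freedom) was fitted in limma 3.58.1 (R 4.3.3) with eBayes, and p-values were adjusted by Benjamini-Hochberg over all genes at 0.05. The script was tested on simulated data. Steps in Pax7+/+ and Pax7-/- were compared by a contrast in that fit. Alternatives covered the array set, scaling, probe set choice, filters, trend, a replicate block and each array left out.

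The members and gene lists were chosen with earlier results of these data known. Named by rule were the 12 largest rises and falls among genes that passed, at least 2-fold and without overlap in either set (predicted genes, olfactory and vomeronasal receptors, pseudogenes and the Y chromosome passed over), up to 6 members of each list that passed by size and up to 3 that did not pass by mean level, and a fixed set of defining genes. Some of these defining genes are not reported here. Chosen after their values were seen were Sall4, Fbxo15, Vim, Tgfbi, Hspa5, Hif1a, Bmpr1a, Thy1, Csf1, Cxcl1, Cxcl5, Il6, Sfmbt2 and the microRNA genes other than Mir18.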

Additional observations from a re-analysis of the deposited data

Results flagged for a closer look

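The step of day 7 against day 0 differed between Pax7+/+ and Pax7-/- cells for 31 of 317 named genes, tested as an interaction contrast in limma with adjusted p under 0.05 over all genes. Over all 22180 genes it differed for 107 (0.482%). Many named genes were chosen by their Pax7+/+ step, which enters the contrast, so the 2 shares cannot be compared. Each value below is the Pax7+/+ step minus the Pax7-/- step in log2. It was negative for 23 genes. Among matrix and matricellular genes it was Tnc -2.81, Dcn -2.08, Timp1 -1.94, Igfbp7 -1.78, Thbs1 -1.52, Ccn1 -2.11 and Ccn2 -1.68, and for the chemokine and cyclooxygenase genes Ccl2 -3.08 and Ptgs2 -2.58. Genes of smooth muscle and the actin cytoskeleton had Myl9 -1.96, Acta2 -1.74, Tagln -1.28 and Tpm1 -1.14, and mesenchymal genes Cdh11 -2.51, Snai2 -1.79 and Vim -1.02. For immediate early and stress genes it was Dusp1 -1.62, Ier3 -1.45, Egr1 -1.17 and Atf3 -1.04, and for a D cyclin, a kinase and a Wnt receptor Ccnd2 -2.10, Pim3 -1.48 and Fzd7 -1.34. It was positive for 8 genes, at Zscan4e 4.76, Zscan4d 3.07, Lama1 2.30, Srgn 2.29, Mir669i 1.95, Fbxo15 1.95, Sfmbt2 1.43 and Fdft1 1.15. Adjusted p-values ran from 0.00016 to 0.0426. The day 0 arrays of Pax7-/- cells lay below those of Pax7+/+ in both array sets for the 23 genes with a negative value and above them for the 8 with a positive one. These arrays enter the contrast, so the starting level is part of each value, and the cause of the differences was not tested. Groups of 3 arrays were too small for a search for single outlying arrays.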

How the results depend on the processing

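The counts of 564 genes higher and 697 lower at day 7 turned most on the array set. Without it in the fit they were 9 and 6, with the difference taken within each set and averaged 1575 and 1751, on narrow arrays alone 180 and 309, and on wide arrays alone 1552 and 1474. The 6 Pax7+/+ arrays alone gave 338 and 512. An adjusted p under 0.01 left 246 and 318, and a 2-fold minimum 213 and 211. With 1 array left out the counts ran from 208 to 661 higher and from 362 to 658 lower, and fell most without day 0 replicate 3 (208 and 404), day 7 replicate 2 (288 and 403) or day 7 replicate 3 (278 and 362). Other normalizations, probe set choices, filters, the array set as a random block and an intensity trend kept both counts within 1.5 times. The median over all genes moved by less than 0.1 log2 under each scaling. Without the array set, 8 named genes that were lower turned to positive differences that did not pass: Mcm6 0.02, Kif11 0.05, Plk2 0.07, Gnl3 0.23, Pes1 0.03, Rpl7 0.10, Fzd7 0.34 and Mtf2 0.23 log2. With 1 array left out the calls of Gnl3 (adjusted p = 0.0691 to 0.101), Pes1 (0.0501 to 0.136) and Rpl7 (0.0571 to 0.115) were lost without 3, 6 and 4 of the 6 arrays. Of the 185 genes chosen for description that passed, 176 did not pass in that fit, 75 on narrow arrays alone and 68 without day 0 replicate 3. The cause was not tested. The number of arrays limits the precision, and an exact permutation of 3 arrays against 3 cannot reach an unadjusted p under 0.1.

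Groups share replicate numbers, and the titles do not say whether arrays of the same number were paired. Deviations of day 7 and day 0 arrays of the same number correlated at -0.16, 0.10 and -0.18 over genes. With so few arrays per group, these correlations cannot decide whether the numbers pair the arrays. With the replicate number as a block, 491 genes were higher and 632 lower.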
